A study of Mus musculus with 6 samples.

Results

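Fragments of small nuclear RNAs (snRNAs) were examined in small RNA libraries of purified round spermatids, which are haploid male germ cells. The 39 entries described here are the snRNA entries of the deposited table selected on their measured counts, at least 5 summed over all libraries of both genotypes, out of 1308 snRNA entries and 45932 entries of all classes. A further 55 snRNA entries had 1 to 4 counts and 1214 had none, so the 39 entries held 8840 of the 8929 snRNA counts. The libraries came from C57BL/6 mice at postnatal day 21, 3 from males of a global Miwi knockout line (KO) and 3 from wild-type males (WT). Miwi (Piwil1) encodes a PIWI protein that binds pachytene piRNAs, and the line was recovered from cryopreserved sperm. Whether the 3 numbered libraries of a genotype came from separate animals is not stated in the labels, so each p-value reflects the variation among these samples alone, and that variation may be technical.

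The snRNAs are short non-coding RNAs that work as ribonucleoprotein particles. U1 recognises the 5′ splice site, U2 the branch point, and U4, U5 and U6 join as a tri-snRNP, in which U5 holds the exon ends and U6 takes part in catalysis. U11, U12, U4atac and U6atac serve the minor spliceosome, and U7 acts in the 3′ end processing of histone mRNAs. Apart from U6 and U6atac they carry a ring of Sm proteins, for U7 a variant ring, on a U-rich site. U1, U2, U4, U5 and U6 each have several gene copies, and many further copies are pseudogenes. Small RNA libraries capture fragments of these RNAs, and the table does not hold the position or length of the reads within an entry.

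Most entries carried predicted-gene names, and their type was assigned by sequence. The entry length minus 20 nt matched the GENCODE M21 transcript (build GRCm38) in 39 of 39 entries. Of the 39, 8 were U5, 9 were U2, 7 were U1, 7 were U6, 2 were U4, 2 were U6atac, and U4atac, U7, U11 and U12 had 1 each. The lowest identity of an entry to the RNA that gave its type was 71.9%. By position, 22 lay outside annotated genes and 17 inside another gene, 4 of those in an exon. The 1305 snRNA entries with a GENCODE sequence had 1305 distinct sequences, so identical gene copies are not separate entries. Positions are those of the copy that names the entry.

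U5 copies held most of the counts. Rnu5g and Gm25313, on chromosome 9, lay in introns of Parp16 on the opposite strand. Gm24871, on chromosome 1, overlapped an exon of the antisense RNA B930036N10Rik on the same strand. Gm25099, on chromosome 4, was intergenic, and Gm22265, on chromosome 1, lay in an intron of Hhat on the opposite strand.

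Of the 20-base windows of each RNA, 35.1% in Gm24871, 22.7% in Gm25099, 12.4% in Rnu5g, 12.4% in Gm25313 and 69.1% in Gm22265 occurred in no other annotated snRNA of the table. Reads from the shared windows cannot be assigned to 1 copy, and the header shows no option for reads that match several entries. The counts of single copies are therefore uncertain, and whether reads shared between copies were kept in the sums of a type was not tested.

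Values are given as counts per 100000 miRNA counts of the same library, since the deposited counts are raw. The table totals ranged from 747443 to 1335013 in the KO libraries and from 3114845 to 5037232 in the WT libraries. The miRNA totals lay closer together, at 146487 to 243655 in KO and 179761 to 246030 in WT. miRNAs took 18.1% to 19.6% of the KO tables and 4.88% to 5.96% of the WT tables and piRNAs 79.5% to 80.8% against 93.3% to 93.9%, so the choice of scale sets the direction of many comparisons. The germ cell miRNAs miR-34b-5p, miR-34c-5p and miR-449a-5p summed to 29573 to 33510 per 100000 miRNA counts in KO and 27437 to 29109 in WT, all 3 of 3 listed being found, and the KO libraries lay above the WT libraries. Markers of Sertoli cells (2 of 2 found, 171 to 225 in KO and 190 to 236 in WT), endothelium (1 of 2, 612 to 684 and 672 to 723) and leukocytes (3 of 5, 178 to 206 and 145 to 194) overlapped. The erythroid miRNAs (2 of 2), of which miR-144-3p was at 0 in KO replicate 2, summed to 3.69 to 4.78 in KO and 7.79 to 12.2 in WT. Of 3 smooth muscle names 2 were found, miR-143-3p and miR-145a-5p, and summed to 1444 to 1914 in KO and 2022 to 2948 in WT. The erythroid and smooth muscle sums were lower in every KO library. Of their single members, miR-451a and miR-143-3p were too, while miR-144-3p and miR-145a-5p overlapped. Of the germ cell miRNAs, miR-34c-5p and miR-449a-5p were higher in every KO library. The most abundant, miR-34b-5p, overlapped, at 19030 to 22854 in KO and 18809 to 20014 in WT. The part of these lists in the results below was not tested. In such bulk samples fewer cells of a type and less RNA per cell cannot be told apart, and Miwi mRNA itself was not analysed here.

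Summed over the 39 entries, snRNA fragments did not separate the genotypes on the miRNA scale. Per 100000 miRNA counts, KO replicates 1 to 3 held 584, 446 and 806, and WT replicates 1 to 3 held 521, 393 and 1277. Values of single libraries are given in this order throughout. The KO mean was 612 ± 182 (SD, n = 3) and the WT mean 731 ± 478 (SD, n = 3), a ratio of 0.838, with the groups overlapping. Without WT replicate 3 the ratio was 1.34. The spread in WT was 65.4% of the mean, against 2.99% from counting error alone.

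Replicate 3 was the highest library of each genotype. It held 2.79 times the mean of replicates 1 and 2 in WT and 1.57 times in KO. The same ratio was 3.23 in WT and 3.82 in KO for snoRNAs, which guide modification of rRNA and snRNA, and 3.33 and 4.21 for mitochondrial tRNAs. For endo-siRNAs it was 1.19 and 0.99. Libraries numbered 3 therefore stood apart in fragments of several structured RNAs, and values without them are given where they matter.

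**Figure D1:**
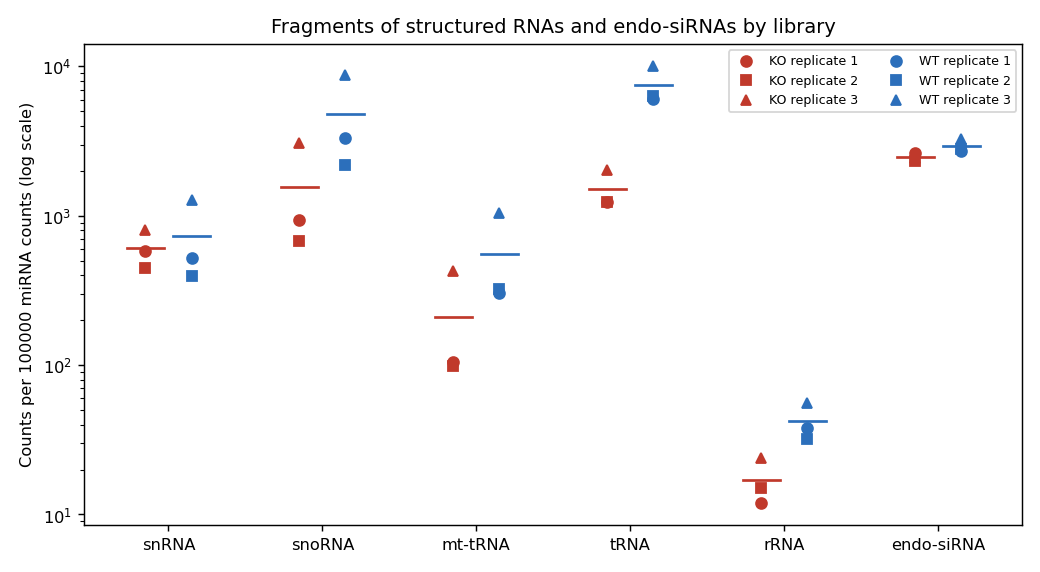
Counts per 100000 miRNA counts (log scale) for the 39 snRNA entries summed, and for snoRNA, mitochondrial tRNA, tRNA, rRNA and endo-siRNA entries, in each of the 3 KO (red) and 3 WT (blue) libraries, with lines at the means. Replicate 3 (triangles) is the highest library of both genotypes for snRNA, snoRNA, mitochondrial tRNA, tRNA and rRNA.

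U5 fragments made up 6880 of the 8840 counts, and the next types were U2 with 729, U1 with 566 and U6 with 421. U5 also led per RNA length: the 5 leading U5 entries had 45.6 to 105 counts per 100000 miRNA counts and 100 nt, while the highest entry of another type, the U1 copy Gm26244, had 11.6. These 5 U5 entries held 95.5% of the U5 counts and 74.3% of all counts of the 39 entries.

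On the miRNA scale the KO to WT ratio of means was 1.02 for U5 and 0.394 for all other types. The same ratio was 0.329 for snoRNAs and 0.380 for mitochondrial tRNAs, both with overlap. For rRNAs it was 0.403 and for tRNAs 0.201, both without overlap. Mitochondrial rRNAs were at 0.657 with overlap and endo-siRNAs at 0.842 without. A low ratio was thus not particular to the snRNA types other than U5. U5 fragments stood at 504, 391 and 690 in KO and at 386, 260 and 910 in WT. The groups overlapped, and the ratio was 1.64 without WT replicate 3 and 1.39 without both replicate 3 libraries. All other types together stood at 79.2, 55.3 and 116 in KO and at 135, 134 and 368 in WT. Here every KO library was below every WT library, and the KO mean was 2.54-fold lower. It was 1.61-fold lower without WT replicate 3 and 2.00-fold lower without both replicate 3 libraries. The sum of all types other than U5 was formed after the values were seen, so its lack of overlap is a description. It includes the minor spliceosomal RNAs, whose own ratio was 0.844 with overlap.

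U1, which starts spliceosome assembly at the 5′ splice site, stood at 24.3, 15.02 and 33.2 in KO and at 36.2, 35.7 and 110.1 in WT, a mean 2.51-fold lower in KO without overlap. U2 stood at 30.7, 21.8 and 41.5 in KO and at 59.5, 56.6 and 124 in WT, 2.56-fold lower without overlap. U6 stood at 9.37, 10.9 and 22.2 in KO and at 23.4, 33.2 and 90.2 in WT, 3.46-fold lower without overlap. Without WT replicate 3 the KO means were 1.49-fold lower for U1, 1.85-fold for U2 and 1.997-fold for U6, and without both replicate 3 libraries 1.83-, 2.21- and 2.79-fold. On whole-table TMM factors, which scale to a table made mostly of piRNAs, the log2 ratios turned to 0.52 for U1, 0.46 for U2 and 0.063 for U6, and that of U5 was 1.86. As a percent of the whole table, all snRNA entries together stood at 0.107, 0.088 and 0.148 in KO and at 0.0304, 0.0241 and 0.0631 in WT. On miRNA totals, for U1 and U6 the highest KO library lay close to the lowest WT library.

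The rarer types had few counts. U4 stood at 5.96, 2.05 and 2.87 in KO and at 5.01, 2.55 and 14.2 in WT, and U7 at 2.56, 1.37 and 4.10 in KO and at 5.56, 2.04 and 10.97 in WT. Both overlapped, and without WT replicate 3 the KO mean was 1.04-fold lower for U4 and 1.42-fold lower for U7. The minor spliceosomal RNAs U11, U12, U4atac and U6atac held 112 counts in all, with means of 7.60 ± 4.24 in KO and 9.01 ± 7.75 in WT (SD, n = 3 each), which also overlapped. Without WT replicate 3 their KO mean was 1.66 times the WT mean.

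**Figure D2:**
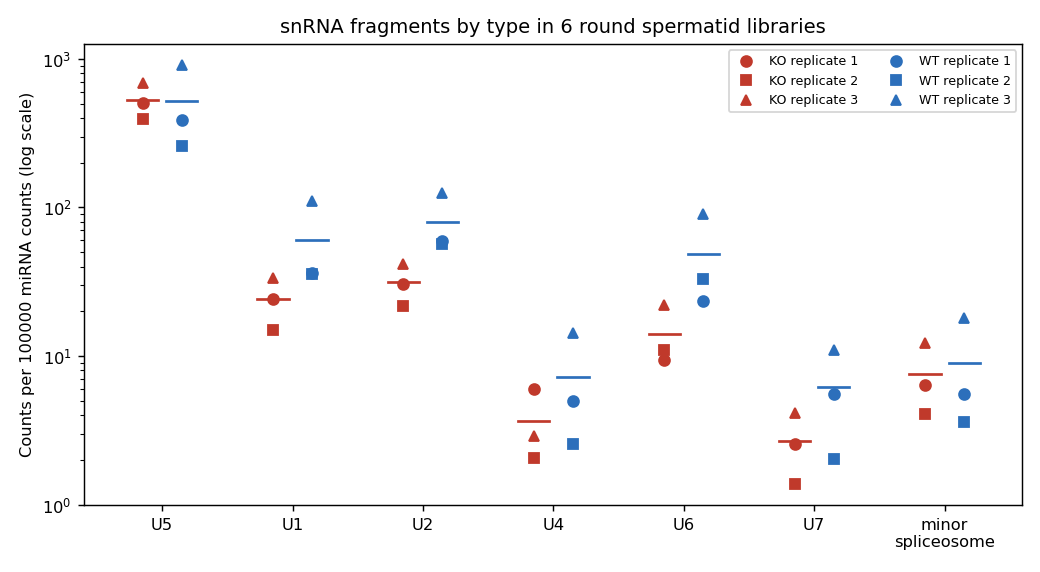
Counts per 100000 miRNA counts (log scale) of each snRNA type in the 3 KO (red) and 3 WT (blue) libraries, with lines at the means. U5 overlaps between the genotypes, while every KO library lies below every WT library for U1, U2 and U6 on this scale. Whole-table TMM factors place all 3 types above 0 (log2 ratios of 0.52, 0.46 and 0.063).

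When the entries of each type were summed and fitted with all other entries (edgeR quasi-likelihood test, Benjamini-Hochberg over 37249 features), 5 of 10 types fell and 0 rose (0 also at an unadjusted p under 0.05), against 69.4% of all features lower and 4.32% higher. U6 fell by 1.78 (log2, adjusted p = 2.24e-11), U2 by 1.34 (adjusted p = 3.14e-09), U1 by 1.31 (adjusted p = 4.58e-08), U7 by 1.16 (adjusted p = 0.0255) and U4 by 0.99 (adjusted p = 0.0363). U5 was at 0.027 with an adjusted p of 0.889 in the same edgeR fit. There 95.83% of the entries were piRNAs, and the spread the test uses is shared over all entries. In an edgeR fit without piRNA entries U2 alone stayed past the threshold (adjusted p = 0.0475), with U6 at an adjusted p of 0.0644 and U1 at 0.115.

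The share of each type within the snRNA counts of a library does not depend on the scale. U5 made up 86.4%, 87.6% and 85.6% of the snRNA counts in the KO libraries and 74.1%, 66.0% and 71.2% in the WT libraries. The means were 86.5% ± 1.01 in KO and 70.4% ± 4.08 in WT (SD, n = 3 each), a difference of 16.1 percentage points that exceeded the spread within either genotype, with no overlap. It lay between 13.9 and 17.9 points when any single library was left out, and was 16.98 without both replicate 3 libraries. U2 made up 5.10% in KO against 11.9% in WT, U1 3.88% against 8.21%, and U6 2.27% against 6.66%, each without overlap. U7 made up 0.418% against 0.815%, also without overlap, and the minor spliceosomal RNAs 1.18% and 1.13%, with overlap. Since shares sum to a whole, these differences are not independent of one another.

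Within U5, the copies did not keep the same proportions. Gm24871 held 28.5%, 31.6% and 28.7% of U5 in the KO libraries and 16.4%, 17.3% and 17.6% in the WT libraries. The means of 29.6% ± 1.75 and 17.1% ± 0.610 (SD, n = 3 each) differed by 12.5 points without overlap, and by 11.5 to 13.0 points when any single library was left out. Gm25099 held 19.5% ± 3.60 in KO and 26.5% ± 4.47 in WT, also without overlap, although the highest KO library (23.6%) and the lowest WT library (23.95%) were close. Rnu5g held 20.3% ± 3.98 and 20.5% ± 1.71, and Gm25313 17.6% ± 2.69 and 18.4% ± 3.27, both overlapping.

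The 3 U5 entries of chromosome 4, Gm25099, Gm23143 and Gm23287, lie within 21.0 kb of one another. Together they held 20.1%, 18.2% and 26.0% of the U5 counts in KO and 35.0%, 28.5% and 27.8% in WT, a mean difference of -9.02 points without overlap. Gm23143 held 0.599% in KO and 1.77% in WT, and Gm23287 1.28% and 2.12%, each without overlap. The 2 entries in Parp16 held 37.9% in KO and 38.9% in WT, with overlap. This grouping by place was chosen after the values were seen.

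**Figure D3:**
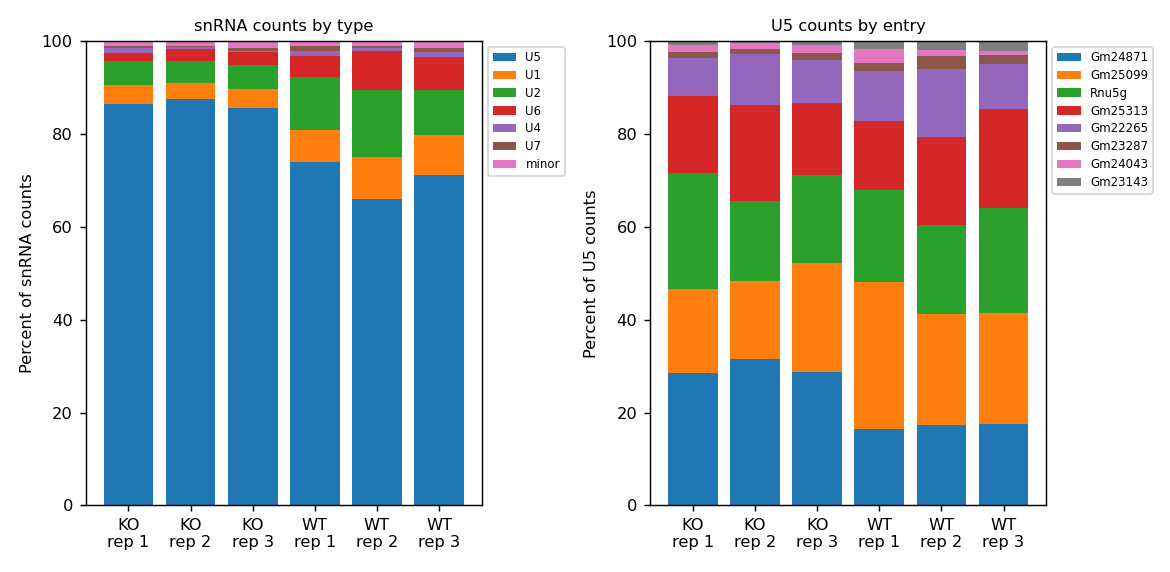
Left, the percent of snRNA counts held by each type, and right, the percent of U5 counts held by each of the 8 U5 entries, as stacked bars for the 3 KO and 3 WT libraries. U5 takes 85.6% to 87.6% of the snRNA counts in KO and 66.0% to 74.1% in WT, and Gm24871 takes a larger part of the U5 counts in every KO library than in any WT library.

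Entry by entry, edgeR with miRNA totals as library sizes called 1 of the 39 entries higher in KO and 19 lower at an adjusted p under 0.05, while 19 did not pass. Over all 37278 entries tested, 4.32% were higher and 69.4% lower, so the snRNA share of lower calls (48.7%) was below the background. The median log2 change was -1.11 over the 39 entries and -2.08 over all entries. In the fit without piRNA entries it was -1.11 over the 39 and -0.51 over all entries, so the order turned. On whole-table TMM factors, which shift the median of all entries by 1.73, the split became 13 higher and 1 lower, against 25.3% higher and 35.3% lower over all entries. With DESeq2, which used its own size factors of the miRNAs in place of miRNA totals, 0 entries were higher and 5 lower (34 tested). The background there was 4.03% higher and 63.1% lower. In the edgeR fit without piRNA entries 0 were higher and 3 lower (background 2.25% higher and 7.15% lower). At an unadjusted p under 0.05, 0 were higher and 7 lower with DESeq2, and 0 higher and 12 lower in edgeR without piRNA entries. Without WT replicate 3, 3 were higher and 6 lower on miRNA totals, against 4.93% and 66.1% of all entries in that fit. Of the 39 entries, 8 reached the limit of 5 counts through their WT counts alone and none through KO alone, and 3 of these 8 are among the 19 lower calls (Gm25259, Gm25698 and Gm22042). The limit admitted these 8 through the genotype where they were high, so their calls are a description. Of the 28 entries with at least 5 counts in each genotype, 16 were called lower. The share among all entries under that stricter limit was not computed, so this count has no background beside it.

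No entry had all KO libraries above all WT libraries on the miRNA scale, and 8 of 39 (20.5%) had all KO libraries below, against 5.22% and 69.7% of all entries. They were the U1 copy Gm26244, the U2 copies Gm24950, Gm25813, Gm26316 and Gm25259, and the U6 copies Gm25245, Gm25698 and Gm24456. Of these, Gm25259, Gm25698 and Gm24456 reached the limit of 5 counts through WT alone, so their lack of overlap is a description. None of the 8 was a U5 entry. On whole-table TMM factors 7 of 8 U5 entries, 2 of 9 U2, 1 of 7 U1 and 1 of 7 U6 entries were called higher by edgeR, and 1 U2 entry lower. Of all entries 25.3% were higher and 35.3% lower on that scale.

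**Figure D4:**
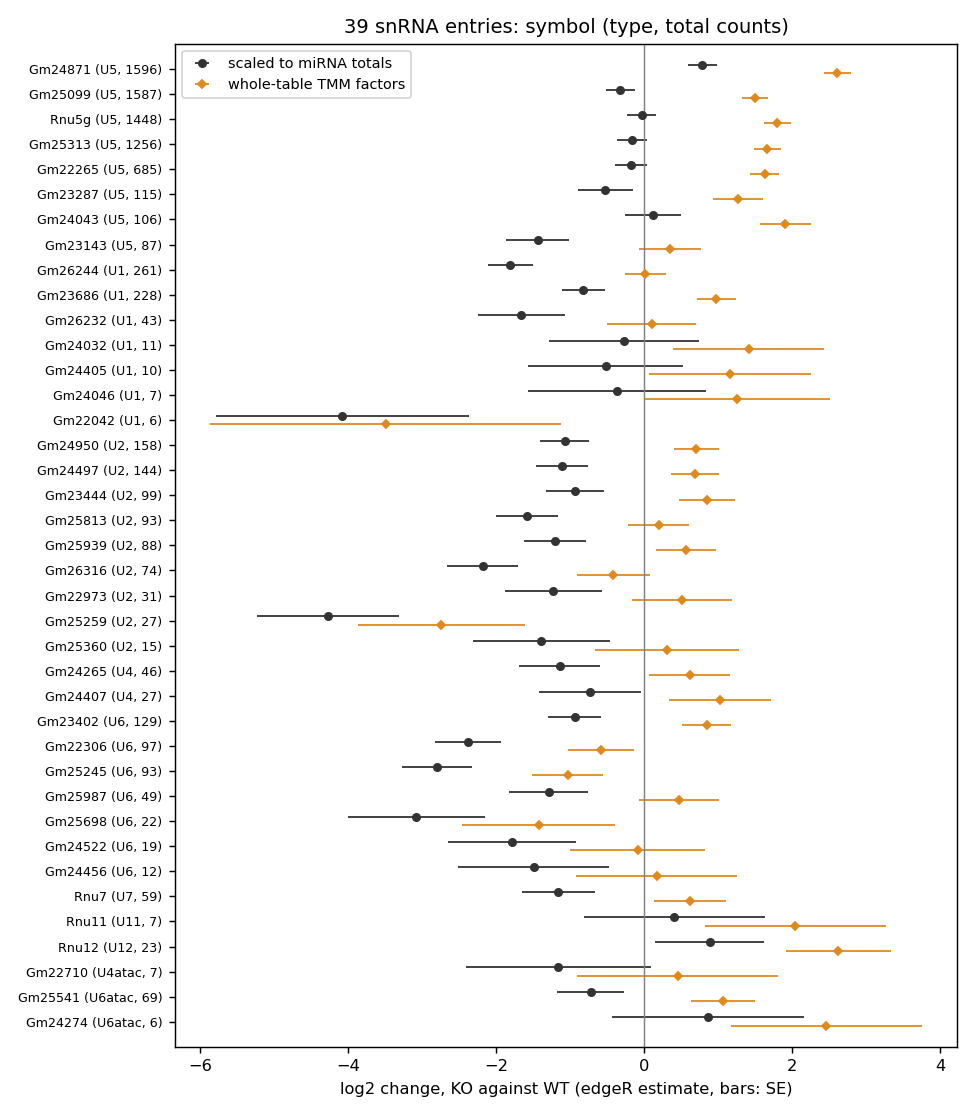
The log2 change in KO against WT of each of the 39 entries (edgeR estimates), scaled to miRNA totals (black circles) and with whole-table TMM factors (orange diamonds), ordered by type and total counts. Bars are standard errors of the edgeR fit, which uses a spread shared over all entries, and do not show the spread of each entry among replicates. On miRNA totals most U1, U2 and U6 entries lie below 0 and most U5 entries near 0, and with TMM factors the points move to the right.

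Among the 8 U5 entries, 1 rose, 1 fell and 6 did not pass, against 4.32% of all entries higher and 69.4% lower. Gm24871 stood at 143.6, 123.6 and 197.8 in KO and at 63.4, 44.9 and 160.1 in WT. Replicate 3 of WT lay above KO replicates 1 and 2, so the groups overlapped. Its log2 change was 0.78 ± 0.20 (SE, adjusted p = 0.000124 in edgeR), but the adjusted p was 0.0505 with robust edgeR estimates, 0.177 with DESeq2 and 0.255 without piRNA entries. The standard error of the difference taken from the 6 log2 library values was 0.58. Standard errors printed beside log2 changes come from the edgeR fit, which uses a spread shared over all entries.

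Gm23143 stood at 3.41, 1.37 and 5.34 in KO and at 6.12, 4.59 and 17.9 in WT, and fell by 1.44 ± 0.43 (log2, SE, adjusted p = 0.00134 in edgeR; 0.166 without piRNA entries). The other 6 U5 entries had log2 changes between -0.53 (Gm23287) and 0.12 (Gm24043). Rnu5g, the named U5 gene, stood at 125.2, 67.6 and 130.5 in KO and at 76.2, 49.99 and 204.0 in WT. Single libraries decided calls in both directions among these entries. Gm25313 and Rnu5g were called higher without WT replicate 3, with log2 changes of 0.77 and 0.80, and Gm25313 was called lower without WT replicate 2 (-0.50). Gm25099 was called lower without KO replicate 3 (-0.76) and without WT replicate 2 (-0.66), and Gm23287 without KO replicate 3 (-1.03).

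The entries whose fall was called by edgeR, by DESeq2 and in the fit without piRNA entries were Gm25245 (U6), Gm26316 (U2) and Gm25259 (U2). The sequences of the 2 U2 entries are shown beside a more abundant U2 copy, with capitals marking bases that differ from Rnu2-10. Gm24950 (chr11:101641748-101641938, plus strand, intergenic) was identical to Rnu2-10 and is shown as the U2 entry with the most counts. Identical copies are not separate entries, so the Gm24950 counts may also come from Rnu2-10 or another identical copy.
Gm24950: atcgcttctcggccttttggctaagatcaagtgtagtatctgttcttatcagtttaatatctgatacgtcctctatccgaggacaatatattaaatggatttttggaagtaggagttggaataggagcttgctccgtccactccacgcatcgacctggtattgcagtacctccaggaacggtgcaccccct
Gm26316: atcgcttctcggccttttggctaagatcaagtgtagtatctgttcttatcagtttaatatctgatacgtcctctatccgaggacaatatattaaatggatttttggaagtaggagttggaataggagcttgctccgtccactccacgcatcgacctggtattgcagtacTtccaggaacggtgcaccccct
Gm25259: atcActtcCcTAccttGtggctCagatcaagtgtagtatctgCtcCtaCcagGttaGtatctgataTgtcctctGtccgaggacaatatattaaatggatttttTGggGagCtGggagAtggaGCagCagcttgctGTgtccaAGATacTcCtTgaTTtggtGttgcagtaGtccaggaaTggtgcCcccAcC

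Gm25245 lay on chromosome 16, in an intron of Atp5o on the same strand. Only 14.8% of its 20-base windows occurred in no other snRNA of the table, so its counts may depend largely on how shared reads were assigned. Gm25245 stood at 0.852, 1.37 and 2.87 per 100000 miRNA counts in KO and at 5.01, 8.67 and 22.8 in WT, without overlap. It fell by 2.81 ± 0.47 (log2, SE, adjusted p = 1.06e-08 in edgeR, 0.000473 with DESeq2 and 0.03 in edgeR without piRNA entries). The standard error from its log2 library values was 0.82. Whole-table TMM factors gave -1.04 with an edgeR adjusted p of 0.0528.

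Gm26316 (chr11:101604850-101605040, plus strand, intergenic) differed from Rnu2-10 at 1 base. Only 7.56% of its 20-base windows occurred in no other snRNA of the table, so its counts may depend largely on how shared reads were assigned. Gm26316 stood at 1.70, 1.37 and 2.87 in KO and at 8.34, 5.61 and 14.2 in WT, without overlap. It fell by 2.18 ± 0.48 (log2, SE, adjusted p = 1.32e-05 in edgeR, 0.00386 with DESeq2 and 0.0259 in edgeR without piRNA entries). The standard error from its log2 library values was 0.50. Whole-table TMM factors gave -0.42 with an edgeR adjusted p of 0.471.

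Gm25259 (chr7:30356732-30356924, minus strand, in an intron of Lrfn3 on the same strand) was the most divergent U2 entry, at 79.4% identity, and 94.3% of its 20-base windows occurred in no other snRNA of the table. It reached the limit of 5 counts through WT alone, with 0, 0 and 1 counts in the KO libraries and 11, 5 and 10 in the WT libraries. The ratio of KO to WT counts per miRNA count was 0.0383, with an exact 95% interval of 0.000934 to 0.233 that covers counting error only. The edgeR adjusted p was 1.85e-05, and Gm25259 was the single entry also called lower with whole-table TMM factors (edgeR adjusted p = 0.0273). Since the limit was reached through WT alone, these calls are a description. Whether its reads come from a U2-like RNA or from the Lrfn3 intron was not tested.

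Of the 7 U6 entries 5 fell (71.4%, near the 69.4% of all entries). Gm23402, on chromosome 1 in an intron of Cd247 on the opposite strand, had the most counts. It stood at 4.26, 7.51 and 9.03 in KO and at 5.56, 9.69 and 23.2 in WT, and fell by 0.94 ± 0.36 (log2, SE, adjusted p = 0.0135 in edgeR; 0.313 without piRNA entries). Gm23402 held 51.6% ± 14.997 of U6 in the KO libraries and 26.2% ± 2.75 in the WT libraries (SD, n = 3 each), while Gm25245 held 11.5% ± 2.11 and 24.3% ± 2.50, both without overlap. The KO shares rest on 22, 16 and 54 U6 counts.

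Gm22306, a U6 copy on chromosome 2, had 1, 1 and 13 counts in the KO libraries and 11, 10 and 61 in the WT libraries. It fell by 2.38 ± 0.45 (log2, SE, adjusted p = 3e-07 in edgeR and 0.115 in edgeR without piRNA entries). The standard error from its log2 library values was 1.33. Gm25698, another U6 copy, reached the limit through WT alone. It had 0, 0 and 2 counts in the KO libraries and 4, 2 and 14 in the WT libraries. The ratio per miRNA count was 0.0995, with an exact 95% interval of 0.0113 to 0.41 that covers counting error only.

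Of the 9 U2 entries 7 fell (77.8%, near the 69.4% of all entries), and Gm22973 and Gm25360 did not pass. Among the 7, Gm25259 reached the limit through WT alone. Gm24950 stood at 8.09, 7.51 and 8.21 in KO and at 12.8, 11.2 and 25.6 in WT, without overlap, and fell by 1.08 ± 0.33 (log2, SE, adjusted p = 0.00214 in edgeR; 0.0558 with DESeq2). The SD of its KO values was 0.375. None of its 20-base windows was unique among the annotated snRNAs, so its counts depend wholly on how shared reads were assigned. Gm25813 stood at 2.13, 2.05 and 6.16 in KO and at 8.90, 7.65 and 15.9 in WT, and fell by 1.59 (log2, adjusted p = 0.000301 in edgeR, 0.0237 with DESeq2 and 0.088 in edgeR without piRNA entries). Gm24497 stood at 8.95, 3.41 and 7.80 in KO and at 9.46, 7.65 and 27.2 in WT, which overlapped, and fell by 1.11 (log2, adjusted p = 0.00239 in edgeR; 0.228 without piRNA entries).

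Of the 7 U1 entries 4 fell (57.1%, against 69.4% of all entries). Gm26244, in an intron of Rock1 on the same strand, stood at 8.52, 1.37 and 14.36 in KO and at 14.46, 17.3 and 58.5 in WT. It fell by 1.81 ± 0.30 (log2, SE, adjusted p = 6.37e-09 in edgeR and 0.117 with DESeq2), and its highest KO and lowest WT libraries nearly met. The standard error from its log2 library values was 1.21. Gm23686, in an intron of Cyp7b1 on the same strand, stood at 11.5, 10.9 and 15.6 in KO and at 15.6, 13.8 and 37.4 in WT. It overlapped and fell by 0.82 ± 0.29 (log2, SE, adjusted p = 0.00798 in edgeR; 0.149 with DESeq2). Gm22042, which reached the limit through WT alone, had no count in KO and 6 in WT.

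U7 fell as the single entry Rnu7, which had 6, 2 and 10 counts in the KO libraries and 10, 4 and 27 in the WT libraries (log2 -1.16 ± 0.49, adjusted p = 0.0259 in edgeR; 0.268 without piRNA entries). Of the 2 U4 entries, Gm24265 was called lower at an edgeR adjusted p of 0.0498. On miRNA totals none of the 5 minor spliceosomal entries passed in edgeR, where the lowest unadjusted p was 0.109 (Gm25541). None passed in DESeq2 with its size factors of the miRNAs, where tested. With whole-table TMM factors edgeR called the U12 gene Rnu12 (log2 2.63, adjusted p = 0.000574) and the U6atac entry Gm25541 (log2 1.07, adjusted p = 0.0252) higher. Rnu12, the U12 gene, had 4, 3 and 8 counts in the KO libraries and 1, 1 and 6 in the WT libraries (log2 0.88 ± 0.74, adjusted p = 0.276 in edgeR).

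The share of called entries differed with their counts. Of the 12 entries with at least 100 counts 5 fell and 1 rose, against 80.2% of all entries of that size lower. Of the 13 entries with 30 to 99 counts 11 fell (68.7% of all entries), and of the 14 with fewer than 30 counts 3 fell (41.1% of all entries). These 3, Gm25259, Gm25698 and Gm22042, reached the limit of 5 counts through WT alone, so their calls are a description. The entries inside the limit with the fewest counts, Gm22042 and Gm24274, had 6 each, and 5 entries just under the limit had 4 each.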

How the data were processed

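Small RNA was measured in 3 KO and 3 WT libraries, made with a mirVana kit and an Ion Total RNA-Seq kit, per the labels' protocols. The deposited values are raw counts per reference sequence from featureCounts v1.5.0-p2, per the file headers. The submitters' processing notes name cutadapt, DESeq2 and mm9. The aligner, strand setting and treatment of reads matching several entries were not given in the sources used here. Members and lists, including the miRNA lists for germ, Sertoli, endothelial, erythroid, smooth muscle and leukocyte cells, were chosen with earlier results of these data known.

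Counts were scaled to each library's miRNA total, except that DESeq2 used its own size factors computed on the miRNAs. Of the entries with at least 5 counts (37278), all were tested together with edgeR 4.0.16 (quasi-likelihood, two-sided, Benjamini-Hochberg, threshold 0.05) in R 4.3.3, with limma 3.58.1 and, as an alternative, DESeq2 1.42.0. Only the main edgeR fit was tested on simulated counts, with the same set spread for every entry and no replicate 3 effect. It therefore does not cover the spread of the snRNA counts seen here. Types were assigned in Python 3.11.15 by identity of at least 60% to named snRNAs of GENCODE M21 (GRCm38), since names did not give them. No named copy of U4, U6atac and U4atac served there, and Gm24265, Gm25541 and Gm22710 were taken as these by general knowledge. Sums over a type and shares have no test of their own beyond the fit of summed types. Named entries are the 12 with most counts, those past the threshold (up to 10 a direction by adjusted p) and every type; further entries were added to account for members. Alternatives were other scalings, filters, a replicate block, leaving out libraries and summed types. Robust edgeR estimates, fits without piRNA entries, the shares and the sum of all types other than U5 were chosen after seeing the data. Sequences of the U5 and U6 entries are not reported here.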

Additional observations from a re-analysis of the deposited data

How the results depend on the processing

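On whole-table TMM factors 13 snRNA entries were higher and 1 lower (25.3% and 35.3% of all entries). On whole-table library size 12 were higher and 1 lower (25% and 35.6% of all entries). These 2 scales shifted the median log2 change of all entries by 1.73 and 1.71 and turned the direction of several results. On them in that order the log2 ratios of summed counts were 1.58 and 1.55 for all snRNA entries, 1.86 and 1.84 for U5, 0.52 and 0.48 for U1, 0.46 and 0.43 for U2, 0.84 and 0.82 for U4, 0.063 and 0.028 for U6, 0.63 and 0.60 for U7, 1.62 and 1.58 for the minor spliceosomal RNAs, and 0.49 and 0.46 for all types other than U5. The entries that turned on both scales had log2 changes of 1.4997 and 1.47 for Gm25099, 1.80 and 1.77 for Rnu5g, 1.67 and 1.64 for Gm25313, 1.63 and 1.61 for Gm22265, 0.97 and 0.95 for Gm23686, 0.71 and 0.69 for Gm24950, 0.69 and 0.67 for Gm24497, 0.84 and 0.82 for Gm23402, 1.27 and 1.24 for Gm23287, 0.19 and 0.17 for Gm25813, and 0.35 and 0.32 for Gm23143. Gm26244 turned on TMM factors, at 0.012. The shares within snRNA counts do not depend on these scales.

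DESeq2 called 0 higher and 5 lower (63.1% of all entries lower), filterByExpr left 19 entries with 12 lower (76.7% of all), and summing the entries of each type gave 0 higher and 5 lower (69.4% of all). Robust edgeR estimates gave 0 higher. The fit without piRNA entries gave 0 higher and 3 lower, with 146 of its 1553 entries called (2.25% higher and 7.15% lower). With types summed it gave 0 higher and 1 lower, with 147 of 1524 called (2.36% higher and 7.28% lower). Rnu5g turned to 0.084 with TMM factors of the miRNAs, 0.087 with their DESeq2 size factors and 0.0865 in DESeq2. Without both replicate 3 libraries 3 were higher and 8 lower (4.75% and 64.7% of all entries), U4 stood at 0.084, and Rnu5g at 0.65, Gm25313 at 0.63, Gm22265 at 0.092 and Gm24043 at -0.095.

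Leaving out 1 library at a time gave 1 to 3 entries higher and 6 to 22 lower, and the extremes of 3 and 6 came without WT replicate 3. Of all entries 3.56% to 4.93% were higher and 66.1% to 68.8% lower in these fits. Over these fits Gm25099 ran from -0.76 to 0.24, Rnu5g from -0.38 to 0.80, Gm25313 from -0.50 to 0.77, Gm22265 from -0.41 to 0.33 and Gm23287 from -1.03 to 0.10, each highest without WT replicate 3. Gm24043 ran from -0.22 without WT replicate 2 to 0.44 without WT replicate 1. The log2 ratio of all snRNA entries ran from -0.56 to 0.42.

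Over all 37278 entries, of which 95.83% were piRNAs, the deviations of same-numbered libraries correlated at 0.0209, 0.0585 and 0.0950. Each library correlated best with its own number, and the numbers were not taken as pairs. These correlations describe mostly piRNAs. For snRNA fragments replicate 3 was the highest library of each genotype, and pairing among snRNA entries alone was not tested. With the replicate block 17 of the 19 lower calls remained, Rnu5g stood at 0.11 and Gm25313 at 0.044. Low counts limit single entries: 14 of 39 had fewer than 30 counts. The causes of these differences were not tested.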
